A study of Mus musculus with 14 samples.

Results

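The cells that remain after astrocytes are sorted out of the upper and the deep layers of the mouse cerebral cortex were compared here. They are the GFP-negative live cells, called non-astrocytes below, and they make up 4 of the 14 libraries of the series, chosen by their sample titles: 2 from upper and 2 from deep layers. All mice were of the SW strain, carried the Aldh1l1-GFP reporter, in which the promoter of an astrocyte gene drives green fluorescent protein, and were taken on postnatal day 14. Layers were parted by hand, the tissue was freed into single cells with papain, and cells that excluded DAPI were sorted by GFP. The other libraries came from GFP-positive astrocytes (3 per layer) and from undissociated bulk tissue (2 per layer). The gate defines the non-astrocytes only by what they lack, so the fraction mixes every cell type that lived through dissociation. For the upper layer non-astrocytes and astrocytes the cell type field names bulk tissue, against their titles, which decided the group here. No label ties a replicate to an animal of its own, so p-values rest on the spread of libraries that, among the sorted cells, may be technical repeats. The 2 bulk tissue replicates of each layer differed in the Y-linked gene Ddx3y (4.61 and 329 in upper, 4.70 and 317 in deep layers) and so did not come from the same animals alone.

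At this age the cortex holds excitatory neurons ordered by layer, interneurons, microglia, the cells of blood vessels and the meninges, and oligodendrocytes that are beginning to wrap axons in myelin, a process that starts near the white matter. Cajal-Retzius cells, which lie below the pia in layer 1, secrete reelin, a large matrix protein that guides the layering of neurons. Most of them die in the first weeks after birth, and some interneurons make reelin as well. Values are given as normalised read counts, the deposited reads per gene divided by 1 size factor per library.

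The 4 non-astrocyte libraries held 23943702 to 26062144 reads in genes, within the 18226457 to 30316765 of the series. Upper layer replicate 1 stood apart. It had at least 1 read in 30333 of the 32830 genes (92.4%), against 26356 in upper layer replicate 2 and 26319 and 25961 in the deep layer libraries. Among 1039 genes of the olfactory and vomeronasal receptor, keratin-associated protein and beta-defensin families, of which cortex is known to use few, 943 had a read in that library, against 293, 190 and 206 in the other non-astrocyte libraries. These reads were thin, with a median of 1.00 read per kilobase of exon in that library and 0 in each of the other 13. The summed value of the 13 mitochondrially encoded genes was 556875 in the same library and 1280038, 1245039 and 1486239 in the others. Results are therefore given with and without upper layer replicate 1. Without it, upper layer replicate 2 alone is set against both deep layer libraries.

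**Figure D1:**
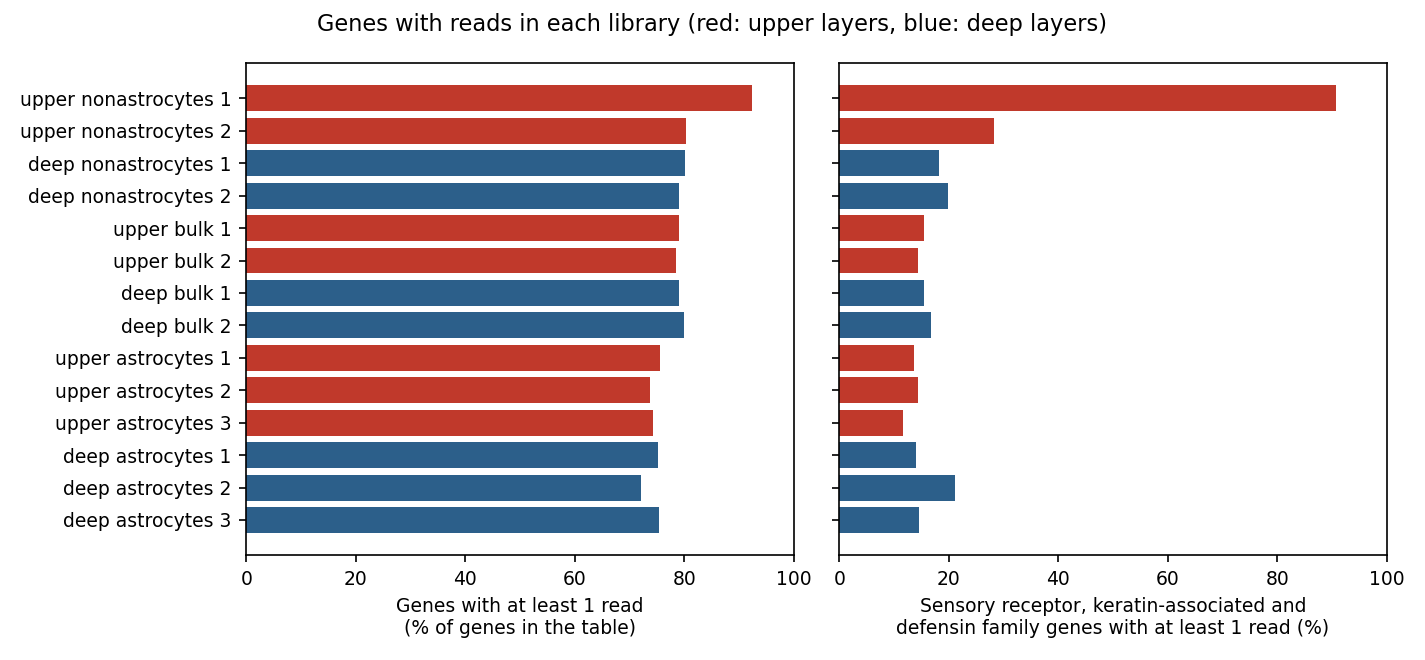
Share of all genes (left) and of 1039 receptor, keratin-associated and defensin family genes (right) with at least 1 read, in percent, in each of the 14 libraries; red bars are upper and blue bars deep layers. Upper layer non-astrocyte replicate 1 is the longest bar in both panels, with 92.4% of all genes.

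The gate was checked against marker genes. Aldh1l1, the gene of the reporter, stood at 109 and 123 in the upper and 94.7 and 133 in the deep layer non-astrocytes, against 2559 to 4516 in the 6 astrocyte libraries. Neurons were scarce as well: 15 pan-neuronal genes summed to 4.73% of their bulk tissue level for upper and 3.95% for deep layers. Cx3cr1, the fractalkine receptor of microglia, stood at 23545 and 33828 in the upper and 26838 and 33142 in the deep layer libraries, and Rgs5, a regulator of G-protein signalling in pericytes, at 180473 and 215128 against 256465 and 198858. Both genes overlapped between the layers and both lay over 10 times above their bulk tissue level, Rgs5 at 2927% of it in the upper and 3083% in the deep layers. The fraction was thus rich in RNA of microglia and mural cells and poor in RNA of neurons.

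Reln, which encodes reelin, was the 1 gene of 22575 tested that changed between the layers, 0.00443% of them, by limma with Benjamini-Hochberg adjustment. Its values were 266 and 263 in the upper and 60.7 and 64.6 in the deep layer non-astrocytes. The 2 libraries of a layer nearly coincided and the layers stood far apart, at 265 ± 2.43 against 62.6 ± 2.74 (mean ± SD, n = 2 each). The log2 difference was 2.06 (SE 0.22), or 4.18-fold, with an adjusted p of 0.00248. Without upper layer replicate 1 the difference was 2.05 and the adjusted p 0.0515 by limma, above the threshold of 0.05, and 0.0118 by edgeR's quasi-likelihood test on the recovered reads. In a fit of the 4 non-astrocyte libraries alone the adjusted p was 0.508. In pools of this kind, fewer cells of a type and less RNA per cell cannot be told apart.

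In undissociated tissue Reln did not follow this order. It stood at 1196 and 1346 in upper and 1412 and 1820 in deep layer bulk tissue, a log2 difference of -0.34 that was not called (adjusted p = 0.945). Non-astrocytes of the upper layers thus held 20.8% of the bulk tissue level and those of the deep layers 3.88%. The layer difference itself differed between the fractions, by 2.40 on the log2 scale (adjusted p = 0.0142), and it differed from that of astrocytes by 2.19 (adjusted p = 0.0285), where Reln stood between 87.2 and 109 in all 6 libraries. Without upper layer non-astrocyte replicate 1 the first of these had an adjusted p of 0.0538, and without it no gene was called in the second (limma, 684 genes at an unadjusted p below 0.05; edgeR also called none). Reln lies on chromosome 5 at 21884454 to 22344702, minus strand (GRCm38), and its exons overlap the predicted gene Gm10475, whose reads cannot be told from its own without strand. The promoter window is shown because it belongs to the 1 called gene. It spans 250 bases before to 50 after the annotated start, comes from RefSeq (GRCm38.p6) at chr5:22344656-22344955 on the minus strand, and has no capitals because it holds no match to the motif described with the myelin genes. It is 80.7% G and C and holds 47 CpG pairs.
Reln: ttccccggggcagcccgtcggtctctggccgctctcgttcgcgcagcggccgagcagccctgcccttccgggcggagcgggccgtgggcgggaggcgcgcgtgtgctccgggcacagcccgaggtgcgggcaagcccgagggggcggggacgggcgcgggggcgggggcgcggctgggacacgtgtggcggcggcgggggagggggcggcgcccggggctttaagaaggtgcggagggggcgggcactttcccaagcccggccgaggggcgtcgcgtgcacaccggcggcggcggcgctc

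**Figure D2:**
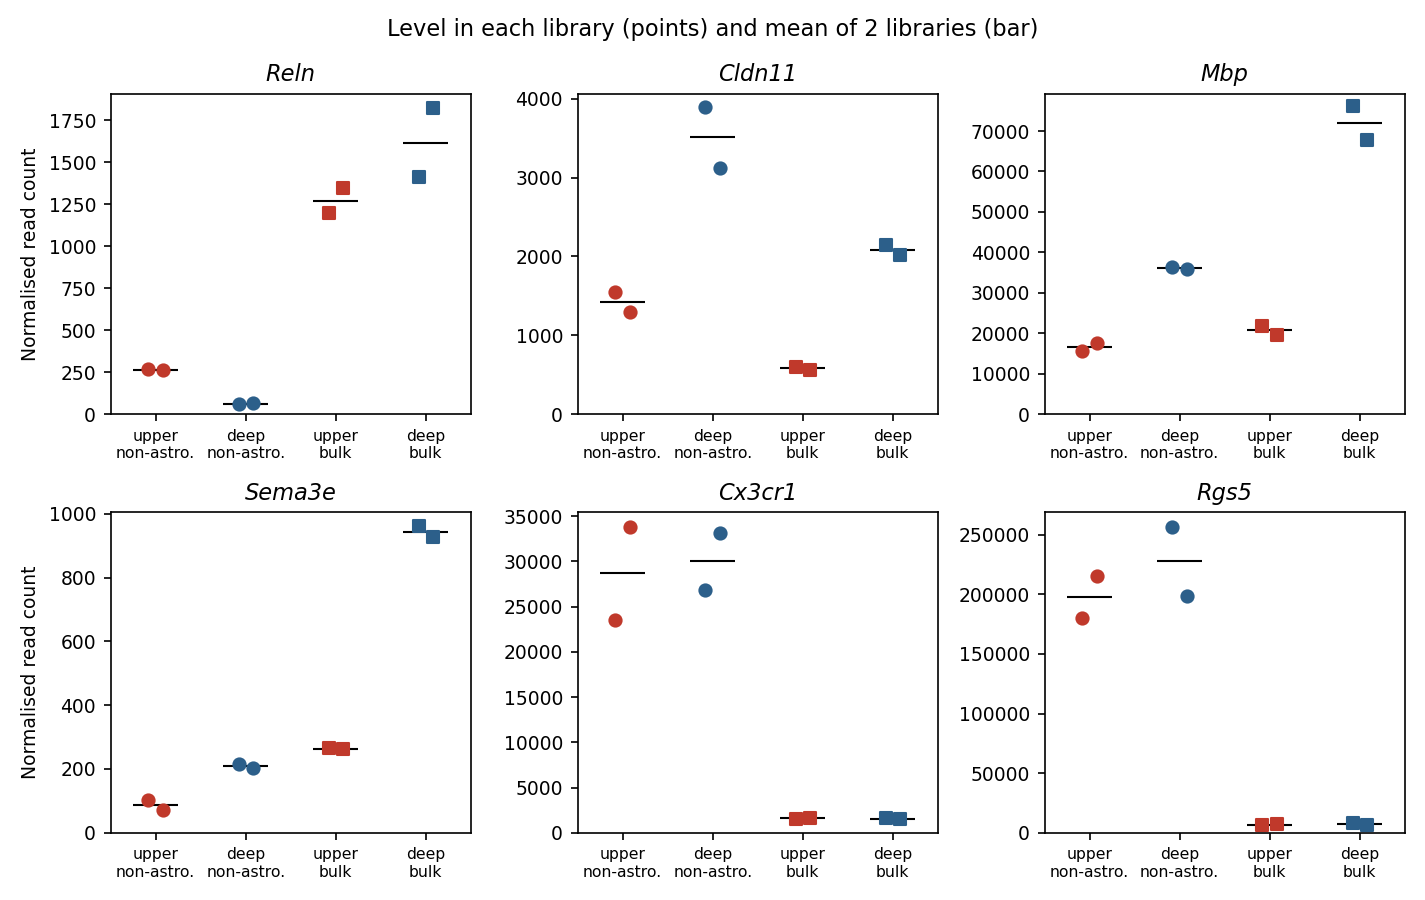
Normalised read count of 6 genes (vertical axes, linear, from 0) in upper (red) and deep (blue) layer non-astrocytes (circles) and bulk tissue (squares); each point is 1 library and each bar the mean of 2. Reln is higher in upper layer non-astrocytes (266 and 263 against 60.7 and 64.6) but not in upper layer bulk tissue, Cldn11, Mbp and Sema3e are higher in the deep layers of both, and Cx3cr1 and Rgs5 overlap between the layers.

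Beside Reln limma called no gene in this fit, which holds no replicate block. With the replicate number as a block it called 33 genes (0.146%), as given below. The median log2 difference of all genes tested was -0.03, or 0.05 without upper layer replicate 1, and the median standard error was 0.34. Division by size factors centres such a median, so it does not show how far the layers differ. At an unadjusted p below 0.05 there were 565 genes higher and 306 lower in upper layers (2.5% and 1.36% of genes tested). The exact permutation test of a single gene over 2 against 2 libraries cannot go below p = 0.333. Tools with other models of the spread called more genes: edgeR 7 (0.031%), all higher in upper layers, and DESeq2 139 of 16438 (0.846%), 101 higher (0.614%) and 38 lower (0.231%). All 139 had upper and deep libraries that did not overlap, which by itself fixes their sign without upper layer replicate 1. In the same fit bulk tissue gave 103 calls, 36 higher (0.159%) and 67 lower (0.297%) in upper layers, 0.456% in all.

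Genes of myelin stood lower in upper than in deep layer non-astrocytes. Of 18 genes of myelinating oligodendrocytes, 12 had both upper libraries below both deep ones and 0 the reverse, against 13.7% and 11.8% of all genes tested, and the median log2 difference of the 18 was -1.26, or -1.52 without upper layer replicate 1. None was called by limma or edgeR, though 12 were lower at an unadjusted limma p below 0.05, against 1.36% of all genes tested. DESeq2 called 7 lower, against 0.231% of the genes it tested. Mbp, which encodes myelin basic protein, stood at 15698 and 17643 in upper and 36496 and 35915 in deep layers (log2 difference -1.12, adjusted p = 0.191). Both upper libraries lay below both deep ones, and the 2 libraries of each layer lay close together.

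Other genes of the sheath had the same order. Tspan2, a tetraspanin of myelin that the list did not hold, stood at 4795 and 3838 in upper and 11986 and 8269 in deep layers, and its exons overlap Tspan2os. Ugt8a, which makes galactocerebroside for the sheath, stood at 2894 and 3079 against 7646 and 5971, and Cldn11, the claudin of its tight junctions, at 1546 and 1291 against 3899 and 3127. Cnp, a phosphodiesterase of uncompacted myelin, stood at 7232 and 10430 against 14667 and 16982, with exons that overlap Dnajc7. For these 4 genes the adjusted p by limma ran between 0.162 (Tspan2) and 0.535 (Cldn11). Mobp, Mal and Gpr37 were also among the 15 deep layer genes that the naming rule took, each with non-overlapping libraries. The spread of Mobp was wide, as it stood at 2742 and 645 in upper and 9455 and 3723 in deep layers. Apod, an apolipoprotein of mature oligodendrocytes, was the 1 member above 0, at 2269 and 4006 against 2597 and 2949.

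Earlier stages of the lineage lay nearer to 0. Markers of newly formed oligodendrocytes had a median of -0.21 over 11 genes, with 3 non-overlapping lower and 0 higher, against 13.7% and 11.8% of all genes tested. Those of oligodendrocyte precursors had a median of -0.49 over 11, with none non-overlapping. Without upper layer replicate 1 these medians were 0.02 and -0.08. In both layers replicate 2 stood above replicate 1: the summed precursor value was 26457 and 49883 in upper and 36864 and 61094 in deep layers, and that of newly formed oligodendrocytes 56423 and 87247 against 71931 and 101354. Within each replicate number both sums were lower in upper layers, though no label says that a number pairs the libraries. Bulk tissue showed the myelin difference too, with a median of -1.80. There 6 of the 18 genes were called lower in upper layers, against 0.297% of all genes tested. For none of the 18 was the layer difference called as different between non-astrocytes and bulk tissue.

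Promoters of the myelin genes were searched for ACAANG on both strands, the core that SOX proteins bind, since SOX10 is a known driver of myelin genes. Windows were found for 14 of the 18 genes, and 11 of their 16 windows held the motif, against 41.2% of all 32851 windows of that length. That of Mobp held 6 matches, all on the strand opposite to the gene, a number reached in 5 of all windows (0.0152%), and it was singled out after its matches were seen. It lies at chr9:120149492-120149791 on the plus strand (RefSeq, GRCm38.p6), with the matches in capitals. A match is a run of letters and does not show binding.
Mobp: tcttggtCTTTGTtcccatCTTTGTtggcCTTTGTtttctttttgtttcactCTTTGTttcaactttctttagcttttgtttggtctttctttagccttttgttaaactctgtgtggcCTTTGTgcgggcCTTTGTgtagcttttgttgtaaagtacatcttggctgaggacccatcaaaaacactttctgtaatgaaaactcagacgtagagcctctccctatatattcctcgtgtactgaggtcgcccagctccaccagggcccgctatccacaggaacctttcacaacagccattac

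Enzymes of cholesterol synthesis lay lower in upper layers too. Cholesterol is a main lipid of myelin and is made in the brain itself. All 17 genes of the list had a log2 difference below 0, from -1.13 to -0.25, and 14 had non-overlapping libraries, against 13.7% of all genes tested that were lower without overlap. The median of the 17 was -0.57, or -0.54 without upper layer replicate 1. Limma and edgeR called none of them, though 12 were lower at an unadjusted limma p below 0.05, against 1.36% of all genes tested. DESeq2 called 4 lower, against 0.231% of the genes it tested. Hmgcs1, which makes HMG-CoA, stood at 1536 and 1743 in upper and 3422 and 2749 in deep layers. Cyp51, which removes a methyl group from lanosterol, stood at 1135 and 1511 against 2607 and 2182, with exons that overlap Akap9. Fdps, which makes farnesyl diphosphate, stood at 171 and 197 against 361 and 374. In bulk tissue all 17 also lay below 0, with a median of -0.33 and no call.

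The 7 genes that edgeR called were Reln, Cacna1i (a T-type calcium channel), Neurod2 (a transcription factor of excitatory neurons), Dmtn (the actin-bundling protein dematin), Cacng3 (an auxiliary subunit of AMPA receptors), Cartpt (a neuropeptide precursor) and Lamp5 (a membrane protein of cortical neurons). Cacna1i stood at 200 and 222 in upper and 73.6 and 57.3 in deep layers, Neurod2 at 188 and 147 against 57.5 and 60.9, and Dmtn at 338 and 427 against 151 and 128. In each the lower upper library was over 2 times the higher deep one. Cacng3 and Lamp5 lie outside the naming rule and are given because edgeR called them: Lamp5 stood at 207 and 277 against 51.8 and 35.5. By limma the adjusted p of the 6 genes beside Reln ran from 0.119 (Cartpt) to 0.597 (Lamp5), and without upper layer replicate 1 edgeR called Reln alone.

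Further genes that the rule took for upper layers are described next. Atp2b2, a plasma membrane calcium pump, stood at 2983 and 2928 in upper and 1529 and 1288 in deep layers (log2 difference 1.07, adjusted p = 0.137). Kcnh5, a voltage-gated potassium channel, stood at 748 and 777 against 330 and 195, and Slc12a5, the chloride exporter of mature neurons, at 782 and 673 against 320 and 226. Lingo1, a co-receptor that restrains axon growth, stood at 1347 and 1738 against 600 and 570. Camk2b, Chrm1 (a muscarinic acetylcholine receptor), Hpca (the calcium sensor hippocalcin), Grin2b (an NMDA receptor subunit) and Vwa5b2 had log2 differences of 1.03 to 1.33, and the exons of Hpca, Grin2b and Vwa5b2 overlap other genes. None of these was called by limma or edgeR, and all were by DESeq2.

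The level in bulk tissue, which the choice did not use, was compared between genes higher in either layer. With a mean of at least 50, a difference of at least 2-fold and non-overlapping libraries, 129 genes stood higher in upper layers (0.571%) and 34 lower (0.151%), or 111 and 32 without predicted genes. Of the 111, 99 had a higher mean in bulk tissue than in non-astrocytes, of the 32, 19, and of all genes tested, 50.9%. This last share covers genes of any level, predicted ones too, so it is not matched to the 111 and 32 with their non-astrocyte mean of at least 50. Most of the upper layer genes were thus among those lower in sorted cells than in tissue. Among the 101 genes that DESeq2 called higher, 97 were above in bulk tissue, with a median log2 ratio of bulk tissue to non-astrocytes of 4.01, against 0.39 for the 38 called lower.

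A list of 15 genes called pan-neuronal here held genes of most neurons and 3 of excitatory neurons, Slc17a7, Slc17a6 and Camk2a. Of the 15, 9 had non-overlapping libraries higher in upper layers and 1 lower, against 11.8% and 13.7% of all genes tested. The median of the 15 was 0.72, or 0.61 without upper layer replicate 1, where bulk tissue had -0.19. Their summed value was 17465 and 16377 in upper and 13045 and 10740 in deep layer non-astrocytes, while in bulk tissue it was 312427 and 403238 against 291856 and 309757. Camk2a, a kinase of excitatory synapses, stood at 3681 and 3085 in upper and 1758 and 943 in deep layers, and Slc17a6, a vesicular glutamate transporter, at 68.3 and 57.4 against 18.6 and 16.4. Syt1, a calcium sensor of vesicle release, stood at 1576 and 1619 against 1160 and 966. Others did not share this order: Map2, a microtubule protein of dendrites, stood at 2653 and 3357 against 3459 and 3809, and Snap25, Elavl2, Gap43, Nefl and Nefm overlapped between the layers. None was called by limma or edgeR, though 5 were higher at an unadjusted limma p below 0.05, against 2.5% of all genes tested. DESeq2 called 2 higher, Slc17a6 and Camk2a, against 0.614% of the genes it tested. The part of this pan-neuronal level in the values of single neuronal genes was not tested.

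Neurons of the upper layers are known by transcription factors such as Cux1 and Cux2. Of 16 such genes 10 had non-overlapping libraries higher in upper layer non-astrocytes and 1 lower, against 11.8% and 13.7% of all genes tested. The median of the 16 was 0.44, or 0.51 without upper layer replicate 1, against 1.35 in bulk tissue. DESeq2 called 5 higher, against 0.614% of the genes it tested, and limma none. Cartpt stood at 30.7 and 48.5 in upper and 3.24 and 0 in deep layers, or 94 reads against 4, a ratio of 22.7 with a 95% exact counting interval of 8.58 to 85.1. Without upper layer replicate 1, which that ratio includes, the limma log2 difference was 4.59 (4.27 with it). Unc5d, a netrin receptor of upper layer neurons, stood at 603 and 524 against 227 and 92.8. Inhba, which encodes an activin subunit, stood at 89.8 and 63.7 against 35.6 and 21.8. The upper libraries of all 3 lay above the deep ones, and the adjusted p of the 3 ran from 0.119 to 0.352 by limma.

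Of 20 genes of deep layer and subplate neurons tested, 16 lay below 0. Non-overlapping libraries were found lower in upper layers for 9 and higher for 1, against 13.7% and 11.8% of all genes tested. At an unadjusted limma p below 0.05, 5 were lower and 1 higher, against 1.36% and 2.5% of all genes tested. The list had a median of -0.20, or -0.37 without upper layer replicate 1, against -1.73 in bulk tissue. In bulk tissue 9 were called lower, against 0.297% of all genes tested. DESeq2 called 2 of the 20 lower in non-astrocytes, Fezf2 and Pcp4, against 0.231% of the genes it tested, and limma none. Fezf2, which specifies subcerebral projection neurons, stood at 3.84 and 0.90 in upper and 22.7 and 28.2 in deep layers (log2 difference -3.12, adjusted p = 0.137), while in bulk tissue it stood at 97.7 and 60.1 against 1348 and 1327. Crym, a crystallin of deep layer neurons, stood at 3.07 and 0 against 13.8 and 7.28. Lpar1, a lysophosphatidic acid receptor that oligodendrocytes also make, stood at 501 and 560 against 1064 and 838, and Nfe2l3 at 170 and 215 against 379 and 467. Both lay above their bulk tissue level, Lpar1 at 147% of it in upper and 120% in deep layers and Nfe2l3 at 321% and 310%. Tbr1 was the 1 non-overlapping gene of the list higher in upper layers, at 269 and 190 against 165 and 126.

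Beside Reln the Cajal-Retzius list gave 1 clear pattern at very low counts. Trp73, the p53 relative that marks these cells, had 47 reads in the upper and 1 in the deep layer libraries, a ratio of 45.4 with a 95% exact counting interval of 7.76 to 1832 that covers counting error only. Its values were 22.3 and 16.2 against 0.81 and 0, and it was at 0.92, 0, 2.35 and 0 in the 4 bulk tissue libraries. The limma difference of Trp73 was 3.89 with an adjusted p of 0.191, and its exons overlap Trp73os. Without upper layer replicate 1, which the read ratio includes, the limma difference was 3.67. Nhlh2, a transcription factor of these cells, stood at 53.7 and 44.9 against 38.0 and 20.0, and Cacna2d2, a calcium channel subunit, at 201 and 140 against 130 and 124. Ndnf and Ebf3, which other cells also make, stood at 940 and 913 against 954 and 1004 and at 381 and 599 against 418 and 566. In all, 4 of 10 members tested had non-overlapping libraries higher in upper layers and 1 lower, against 11.8% and 13.7% of all genes tested. The median of the 10 was 0.70, or 0.39 without upper layer replicate 1. Lhx1 did not pass the filter on low values.

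Some interneurons make reelin as well. Of 15 interneuron genes 4 had non-overlapping libraries higher in upper layers and 1 lower, against 11.8% and 13.7% of all genes tested. Their median was 0.23, or 0.13 without upper layer replicate 1, where 8 of the 15 kept their sign. None was called by limma or DESeq2, though 4 were higher at an unadjusted limma p below 0.05, against 2.5% of all genes tested. Vip, a neuropeptide of an interneuron class found mainly in upper layers, had 43 reads against 2 (values 23.8 and 10.8 against 1.62 and 0), a ratio of 20.8 with an interval of 5.41 to 177. That ratio includes upper layer replicate 1, without which the limma log2 difference was 2.86 (3.40 with it). Dlx1, a transcription factor of the lineage, stood at 20.0 and 13.5 against 4.05 and 7.28, and its exons overlap Dlx1as. Slc32a1, the vesicular GABA transporter, stood at 6.14 and 7.18 against 4.05 and 0.91. Gad2, an enzyme of GABA synthesis, was further above the floor, at 286 and 156 against 185 and 142, and its libraries overlapped. Of the 15 genes 9 lay above and 6 below 0. Sst was the 1 non-overlapping lower gene, at 5.37 and 13.5 against 23.5 and 13.6, and Pvalb and Npy lay below 0 with libraries that overlapped. The part of these cells in the Reln difference was not tested.

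**Figure D3:**
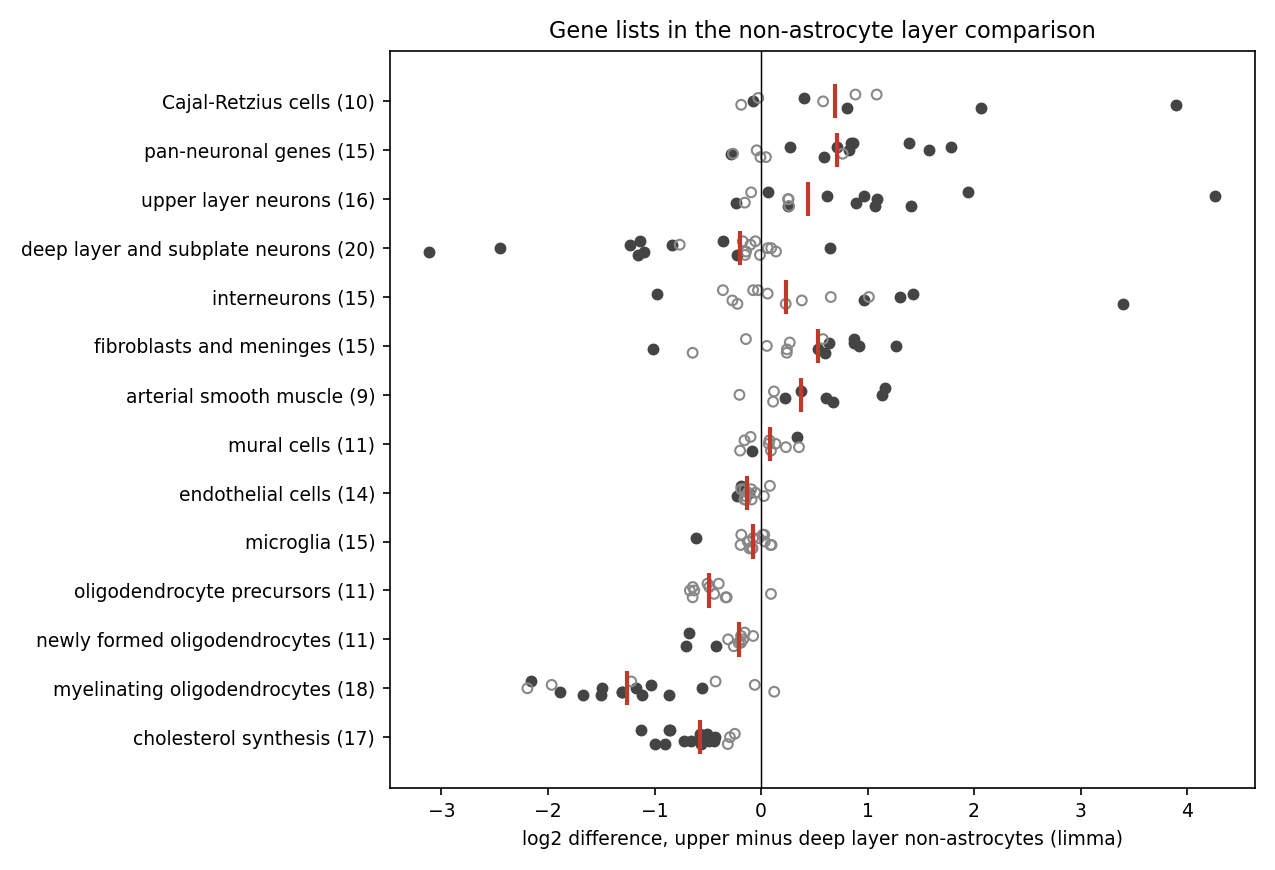
Log2 difference (horizontal axis, upper minus deep layer non-astrocytes) of each tested member of 14 gene lists, with the number tested in brackets; filled points have non-overlapping libraries, open points overlap, and red bars are list medians. Myelinating oligodendrocyte (-1.26) and cholesterol genes (-0.57) lie left of 0, neuronal lists spread to both sides, and microglia (-0.08) and endothelial cells (-0.13) sit near 0.

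Fibroblasts of the meninges lie on the pial surface next to the upper layers, and arteries enter the cortex there. Of 15 genes of fibroblasts and meninges, 7 had non-overlapping libraries higher in upper layers and 1 lower, against 11.8% and 13.7% of all genes tested. The 1 lower gene was Crabp2, near the floor, at 1.54 and 0.90 in upper and 3.24 and 3.64 in deep layers. The median of the 15 was 0.54, or 0.57 without upper layer replicate 1. Col1a1, a chain of type I collagen, stood at 2688 and 4243 in upper and 1048 and 1886 in deep layers (log2 difference 1.26, adjusted p = 0.311), and Aldh1a2, which makes retinoic acid in the meninges, at 234 and 294 against 160 and 120. Of 9 genes of arterial smooth muscle, 6 were non-overlapping higher and 0 lower, with a median of 0.37, or 0.46 without that library. Myh11, the smooth muscle myosin, stood at 3926 and 3048 against 1593 and 1561 (1.13, adjusted p = 0.535), and Acta2, smooth muscle actin, at 4285 and 5659 against 2943 and 3223. DESeq2 called Col1a1 and Myh11 higher, against 0.614% of the genes it tested, and limma called none of either list. At an unadjusted limma p below 0.05, 3 and 2 were higher, against 2.5% of all genes tested.

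Microglia and the other cells of the vessel wall, rich in this fraction, had lists with medians closer to 0. Over all genes tested, 11.8% had non-overlapping libraries higher in upper layers and 13.7% lower. Of 15 microglia genes 1 had non-overlapping libraries, with a median of -0.08, of 14 endothelial genes 3, with a median of -0.13, and of 11 mural cell genes 2, with a median of 0.08. Without upper layer replicate 1 these medians were 0.23, 0.10 and 0.41. Replicate 2 had the larger summed microglia and endothelial values in both layers, and the larger mural sum in upper layers only. The part of the replicate in these medians was not tested. None of their genes was called by limma (0 at an unadjusted p below 0.05), edgeR or DESeq2. The 13 mitochondrially encoded genes had a median of -0.66, which was -0.10 without that library.

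Immediate early and dissociation stress genes were followed because papain treatment is known to induce them. All 20 had a log2 difference above 0, from 0.03 to 1.06, and 8 had non-overlapping libraries, against 11.8% of all genes tested that were higher without overlap. The median of the 20 was 0.24, or 0.27 without upper layer replicate 1, where 16 kept their sign. In undissociated bulk tissue the median was 0.20 and 16 of the 20 had the same sign as in non-astrocytes. Fosb stood at 353 and 241 in upper and 163 and 120 in deep layers, and Nr4a1 at 2673 and 2075 against 1681 and 1220. None was called by limma, edgeR or DESeq2. At an unadjusted limma p below 0.05, 1 was higher, against 2.5% of all genes tested. Their summed value was 61924 and 50791 against 53422 and 37621 in non-astrocytes and 44916 and 44862 against 32326 and 30648 in bulk tissue, and its part in the other differences was not tested.

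Axon guidance ligands went both ways. Of 20, 5 had non-overlapping libraries higher in upper layers and 6 lower, against 11.8% and 13.7% of all genes tested. The median of the 20 was 0.07, or 0.19 without upper layer replicate 1, and DESeq2 called Sema3a higher and Efnb3 and Sema3e lower. Efnb3, a transmembrane ephrin, stood at 233 and 201 in upper and 557 and 478 in deep layers, and Sema3e, a secreted semaphorin of deep layer neurons, at 102 and 71.8 against 214 and 203. Sema3a, a repellent for axons, stood at 196 and 216 against 116 and 104, and Sema5a at 5814 and 6871 against 7887 and 10075. All 4 had libraries that did not overlap, with an adjusted p of 0.191 for Efnb3, 0.234 for Sema3e and 0.605 for Sema3a by limma. In bulk tissue Sema3e and Sema5a were called lower in upper layers. The 22 of the 33 lists examined that are not described gene by gene had medians between -0.66 and 0.15 and no limma call.

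The layer differences of non-astrocytes and of bulk tissue were set against each other, since both come from the same dissected layers. Across 13952 genes their Pearson correlation was 0.252 and Spearman rank correlation 0.146, a description over genes, which are not independent replicates. The 2 differences themselves differed for 13 of 22575 genes by limma (0.0576%), 9 with a more positive difference in non-astrocytes (0.0399%) and 4 with a more negative one (0.0177%). In 11 of the 13 the non-astrocyte difference was under 0.4 in size and in 11 the bulk tissue difference was called. Without upper layer non-astrocyte replicate 1, all 13 kept their sign, at 1.32 to 5.60 in size, but their adjusted p ran from 0.0538 to 0.284 and none was called by limma (850 at an unadjusted p below 0.05), against 8 genes by edgeR. Leaving out either deep layer non-astrocyte library or any bulk tissue library also left 0 calls, and leaving out upper layer non-astrocyte replicate 2 left 8. Over all libraries edgeR and DESeq2 called each of the 13, among 21 (0.093%) and 53 (0.235%) in all.

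Of the 13 genes, 3 were on the deep layer and subplate neuron list and 2 on the upper layer neuron list. Tle4, a corepressor of corticothalamic neurons that the naming rule left out, stood at 1038 and 1229 in upper and 1295 and 1355 in deep layer non-astrocytes, and at 628 and 606 against 2452 and 2006 in bulk tissue. Foxp2, a transcription factor of deep layers, stood at 154 and 105 against 158 and 117 in non-astrocytes and 48.8 and 67.1 against 727 and 450 in bulk tissue. Nr4a2, a nuclear receptor of the subplate, stood at 197 and 116 against 197 and 146, and at 189 and 240 against 1256 and 1598. Their non-astrocyte libraries overlapped or nearly met, while their bulk tissue libraries lay far apart. Cux1 had the opposite order in bulk tissue: 16939 and 19052 in upper and 5194 and 6120 in deep layers, against 6212 and 7193 and 5419 and 5834 in non-astrocytes. Nectin3, an adhesion protein of upper layer neurons, stood at 3672 and 3649 against 1143 and 1248 in bulk tissue and at 1225 and 1259 against 1187 and 1181 in non-astrocytes.

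Several of these genes stood higher in non-astrocytes than in bulk tissue of either layer. Adamts16, a secreted metalloprotease, stood at 898, 912, 889 and 856 in the 4 non-astrocyte libraries, where bulk tissue had 31.3 and 21 in upper and 223 and 148 in deep layers. Itgb3, an integrin subunit, stood at 918 and 1336 against 1076 and 1126, and at 135 and 162 against 768 and 650 in bulk tissue. Stard8, a GTPase-activating protein, stood at 2769 and 3513 against 2696 and 3090, and at 1734 and 2131 against 511 and 420. For all 3 the non-astrocyte values were alike in both layers and the bulk tissue values were not.

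Of the remaining genes Otc and Klhl14 had few reads. Otc, ornithine transcarbamylase, had bulk tissue values of 10.1 and 11 in upper and 0 and 0 in deep layers, at least 3.36-fold higher against a floor of 3 reads per library, and 21.5, 26, 26.7 and 33.6 in the non-astrocytes. Klhl14 was the reverse: 7.68 and 6.28 in upper and 0 and 0 in deep layer non-astrocytes, at least 2.71-fold higher against the same floor, and 13.8 and 8.01 against 76.4 and 75.8 in bulk tissue, with exons that overlap 4930426D05Rik. The Klhl14 bound includes upper layer replicate 1. Sdk2, an adhesion protein of synapses, stood at 322 and 253 against 289 and 233, and Inf2, a formin, at 1395 and 1178 against 897 and 1079. In bulk tissue these were 480 and 456 against 1645 and 1497, and 765 and 744 against 2084 and 2110.

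**Figure D4:**
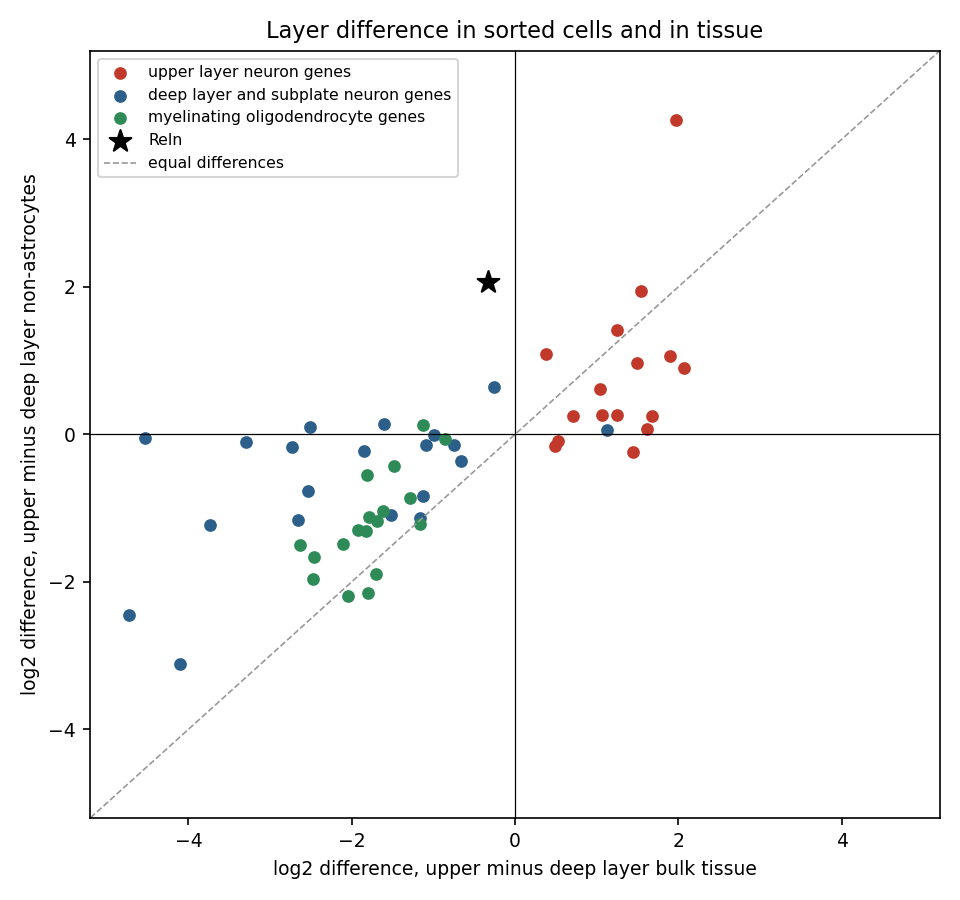
Log2 difference between upper and deep layers in non-astrocytes (vertical axis) against that in bulk tissue (horizontal axis) for tested genes of 3 lists; each point is 1 gene, the star is Reln and the dashed line marks equal differences. Myelin genes except Apod lie at lower left, most of them above the line (medians -1.26 in non-astrocytes and -1.80 in bulk tissue). Deep layer neuron genes spread along the horizontal axis (medians -0.20 in non-astrocytes and -1.73 in bulk tissue). Reln, the 1 plotted gene from outside these lists, lies at 2.06 and -0.34.

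Igfbp5, a secreted binding protein of insulin-like growth factors, was the 1 gene of the 15 named for upper layers beside Reln whose bulk tissue difference had the opposite sign. It stood at 1622 and 2691 in upper and 629 and 986 in deep layer non-astrocytes, and at 1594 and 1696 against 3169 and 3068 in bulk tissue. The difference between the 2 was 2.33 on the log2 scale and was not called (adjusted p = 0.123).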

How the data were processed

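The GRCm38 build and TopHat2 2.0.11, HTSeq 0.6.1p1, CASAVA and DESeq2 were used, per the submitters' processing notes. The deposited values are a signal: reads per gene over a library's size factor, a step taken by the authors. Division by the smallest step gave whole reads for 100% of values (tolerance 1e-06). No source names the strand setting of the counting. Symbols and positions came from GENCODE M21 (32007 of 32830 genes matched).

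Genes with a value of at least 10 in at least 2 of the 14 libraries were kept (22575). limma 3.58.1 in R 4.3.3, with intensity trend and robust moderation, was fitted to log2(value + 1) over 6 group means (8 residual degrees of freedom), and genes were called at a Benjamini-Hochberg adjusted p below 0.05. The log2(value + 1) scale understates changes of low genes. edgeR 4.0.16 and DESeq2 1.42.0 on recovered reads were alternatives. Scripts were tested on simulated data. The named genes are called genes, then up to 15 per direction with the smallest p among genes with non-overlapping libraries, a mean of at least 50 and a log2 difference of at least 1; up to 4 members per described list by p; up to 8 per direction for differences between layer differences; and Reln, Mbp, Cx3cr1 and Rgs5. Any other gene given was picked with its values in view. The members, lists and rule were chosen with earlier results of these data known. Counting intervals and floors cover counting error only and pool both libraries of a group. Those of non-astrocytes include upper layer replicate 1. Some genes are not reported here.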

Additional observations from a re-analysis of the deposited data

Results flagged for a closer look

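The layer difference (upper minus deep, log2) differed between non-astrocytes and bulk tissue, by a test of the difference itself, for 13 genes. In non-astrocytes it was the more positive by 2.40 for Reln, 1.61 for Tle4, 1.88 for Sdk2, 2.83 for Adamts16, 5.73 for Klhl14, 2.26 for Itgb3, 1.85 for Inf2, 2.56 for Nr4a2 and 3.20 for Foxp2. It was the more negative for Otc (-3.86), Stard8 (-1.94), Nectin3 (-1.55) and Cux1 (-1.42). For Otc and Klhl14, where 1 group was at 0, these values depend on the pseudocount. For Reln it also differed from that of astrocytes, by 2.19. None of these calls held in limma without upper layer non-astrocyte replicate 1 (850 and 684 genes at an unadjusted p below 0.05 in the 2 comparisons), where edgeR called 8 and 0.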

How the results depend on the processing

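The count of 1 gene called between the layers of non-astrocytes was 2 with a pseudocount of 5 and 13 with no filter on low values, 4 of them olfactory receptor genes. It was 7 by edgeR, 139 by DESeq2 and 0 with only the 4 libraries compared (limma, 655 genes at an unadjusted p below 0.05). Subtracting the median background, an alternative chosen after seeing the data, gave 2. Leaving out 1 library gave 0 to 5. Without upper layer replicate 1 it was 0 by limma (700 at an unadjusted p below 0.05), and without deep layer replicate 1 it was 5. For the difference against bulk tissue the 13 calls became 7 with a pseudocount of 0.5, 21 by edgeR, 53 by DESeq2, 7 with background subtracted, 8 by edgeR without upper layer replicate 1 and 0 to 8 on leaving out 1 library. For that against astrocytes the 1 call became 2 with array weights, 59 by DESeq2, 0 with only the groups compared, 0 by edgeR without upper layer replicate 1 and 0 to 2 on leaving out 1 library. The sign for Cx3cr1 (-0.08) turned: leaving out 1 library gave -0.34 to 0.18, and edgeR without upper layer replicate 1 gave 0.15. Counts of other settings stayed within 1.5 times, and the cause of these shifts was not tested.

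The labels do not say that a replicate number marks a shared animal or day. Deviations of same-numbered non-astrocyte libraries correlated at 0.732 over 15326 genes, and those of bulk tissue at 0.169. With the replicate number as a block, limma called 33 genes between the layers (21 higher, 12 lower), 13 against bulk tissue and 4 against astrocytes. With 2 libraries per group and no block, even differences of over 2-fold could miss the threshold, as for Mbp (log2 difference -1.12, SE 0.24, adjusted p = 0.191 by limma). With the block Mbp was among the 12 called lower (adjusted p = 0.0211 by limma).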

Other observations

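Blood cell genes differed more between the replicates of a layer than between the layers. Their summed value was 7580 and 27838 in upper and 11639 and 28483 in deep layer non-astrocytes, and that of other leukocyte genes was 2644 and 7587 against 3165 and 6947. Hbb-bs, a beta globin gene whose near-identical copies can share reads, stood at 2794 and 10952 against 4789 and 10836. Xist, which is made from the inactive X chromosome of females, stood at 50708 and 45098 in upper and 62387 and 48728 in deep layers, and the Y-linked Ddx3y at 702 and 654 against 1002 and 778, so each of the 4 libraries held RNA of both sexes.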
